A study of Mus musculus with 375 samples.

Results

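Interferons are secreted cytokines, and those of type I are released by cells on sensing viral or displaced nucleic acid. Type I interferons bind the receptor pair Ifnar1 and Ifnar2, and interferon gamma binds Ifngr1 and Ifngr2. Janus kinases on these receptors then activate STAT proteins, which enter the nucleus, alone or with Irf9, and turn on a battery of interferon-stimulated genes. Described here are 39 genes of this response in single mouse cardiomyocytes, all of which were present among the 21872 genes of the count table. They were chosen by name as genes of this response, with earlier results of these data known, and comprise 4 receptors, 4 transcription factors, 2 RNA sensors, 14 antiviral effectors, 5 GTPases, 7 ubiquitin-like and ADP-ribose enzymes and 3 others.

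The study collected rod-shaped left ventricular cardiomyocytes by pipette and sequenced each cell by Smart-seq2. Hearts were taken 2 weeks after TAC, in which surgical narrowing of the aortic arch loads the ventricle with pressure. All mice were young adult males on a C57BL/6 background, given as C57BL/6N in the labels, and all had TAC. In the CD8-depleted group CD8 T cells had been removed with an injected anti-CD8 antibody, in the CD3e-/- group the mice lacked T cells through deletion of Cd3e in the germ line, and the WT group had neither change. Cells of sham-operated hearts were not analysed here. Each group comprised 2 numbered sets of cells. The study took cells from a pair of mice, but which mouse a set number stands for is not given in the labels, and p-values measure only the spread between these sets.

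Of 375 cells, 53 had fewer than 3000 detected genes and 2 cells held identical counts, one labelled CD3e-/- set 1 and one CD3e-/- set 2. These cells were left out. The 320 cells kept were 62 and 49 CD8-depleted cells in sets 1 and 2, 11 and 77 CD3e-/- cells, and 59 and 62 WT cells. The sets held 7643239 and 5469742 counts of nuclear genes in CD8-depleted cells, 604652 and 24057660 in CD3e-/- cells, and 23691021 and 20540110 in WT cells. CD3e-/- set 1 stood apart. Its 8 cardiomyocyte markers (Myh6, Tnnt2, Tnni3, Actc1, Ttn, Ryr2, Myl2 and Pln) summed to 55791 CPM (counts scaled to a common total of nuclear counts in each set), against 111193 to 156940 CPM in the other 5 sets, and every set read all 8. Its 8 endothelial markers (Pecam1, Cdh5, Kdr, Tie1, Egfl7, Fabp4, Flt1 and Vwf) summed to 1796 CPM, against 286 to 1215 CPM in the others. Each comparison is therefore given over 6 sets and over the 5 sets without it. Of the T cell markers, Cd3e itself had 4 and 37 counts in CD3e-/- cells, 1 and 2 counts in CD8-depleted cells and none in WT cells, and 26 of the 37 lay in 1 cell. The gene is one of T cells and the deleted part is not stated, so these counts do not check the label.

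Members of this response are known for short promoter elements, which the choice of members did not use. The interferon-stimulated response element (ISRE) is bound by STAT and IRF factors, and the gamma-activated site (GAS) is an element of genes induced by interferon gamma. The RefSeq promoter table (GRCm38.p6, the build called mm10 that the count table also uses) held 33 of the 39 members, with 250 bases before and 50 bases after each start. The ISRE core, searched as GAAA, any 2 bases and GAAA again on either strand, lay in a promoter of 16 of the 33 members (48.5%), against 3.99% of 27025 genes in the table, counting a gene with several promoters once. The GAS letters TTCNNNGAA, on either strand, lay in a promoter of 14 of the 33 members (42.4%), against 9.55% of genes. Stretches of 5 members upstream of the start are shown because they carry the ISRE core and belong to genes described below, with the core in capitals on whichever strand it lay and the sequence written 5′ to 3′ along the gene.
Ifit1 (chr19:34640770-34640813, plus strand): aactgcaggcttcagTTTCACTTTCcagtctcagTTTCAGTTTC
Ifit3 (chr19:34583358-34583397, plus strand): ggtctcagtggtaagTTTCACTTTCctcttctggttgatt
Rsad2 (chr12:26456548-26456587, minus strand): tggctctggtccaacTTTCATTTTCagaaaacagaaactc
Isg15 (chr4:156200872-156200911, minus strand): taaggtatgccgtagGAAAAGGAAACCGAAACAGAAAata
Gbp3 (chr3:142559984-142560023, plus strand): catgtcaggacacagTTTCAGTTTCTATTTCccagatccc

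In Isg15 the core occurred 3 times in overlapping copies, 57 to 78 bases before the start. Gbp3 had 2 overlapping copies 30 to 45 bases before the start, and Ifit1 had 2 separate copies 76 to 104 bases before it. Rnf213, Xaf1, Ifi44, Irf7 and the receptors Ifngr1 and Ifngr2 held neither set of letters in this window, which says nothing of sequence outside it. Of the 16 members with an ISRE core, 7 also held a GAS.

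The level of the members in these cardiomyocytes was low and uneven. Summed over the 39 genes, they made up 562 and 740 CPM of nuclear counts in CD8-depleted sets 1 and 2, 1528 and 495 CPM in CD3e-/- cells, and 496 and 366 CPM in WT cells. WT set 2 was the lowest. As the mean of CPM per cell, in which each cell weighs alike, the sums were 540 and 805 CPM in CD8-depleted cells, 1660 and 568 CPM in CD3e-/- cells, and 580 and 375 CPM in WT cells, so that CD8-depleted set 1 then lay under WT set 1. Few genes gave most of this. Per kilobase of exon length, the mean over the 6 sets was 166 CPM for Ifitm3, 39.8 CPM for Ifngr2, 15.1 CPM for Ifi35, 10.7 CPM for Ifngr1, 6.34 CPM for Bst2, 5.99 CPM for Ddx58, 5.67 CPM for Igtp and 5.30 CPM for Parp9. All other members were lower on this scale. Over the 5 sets without CD3e-/- set 1 the first 5 kept this order, and Ddx58 was at 0.765 CPM per kilobase.

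**Figure D1:**
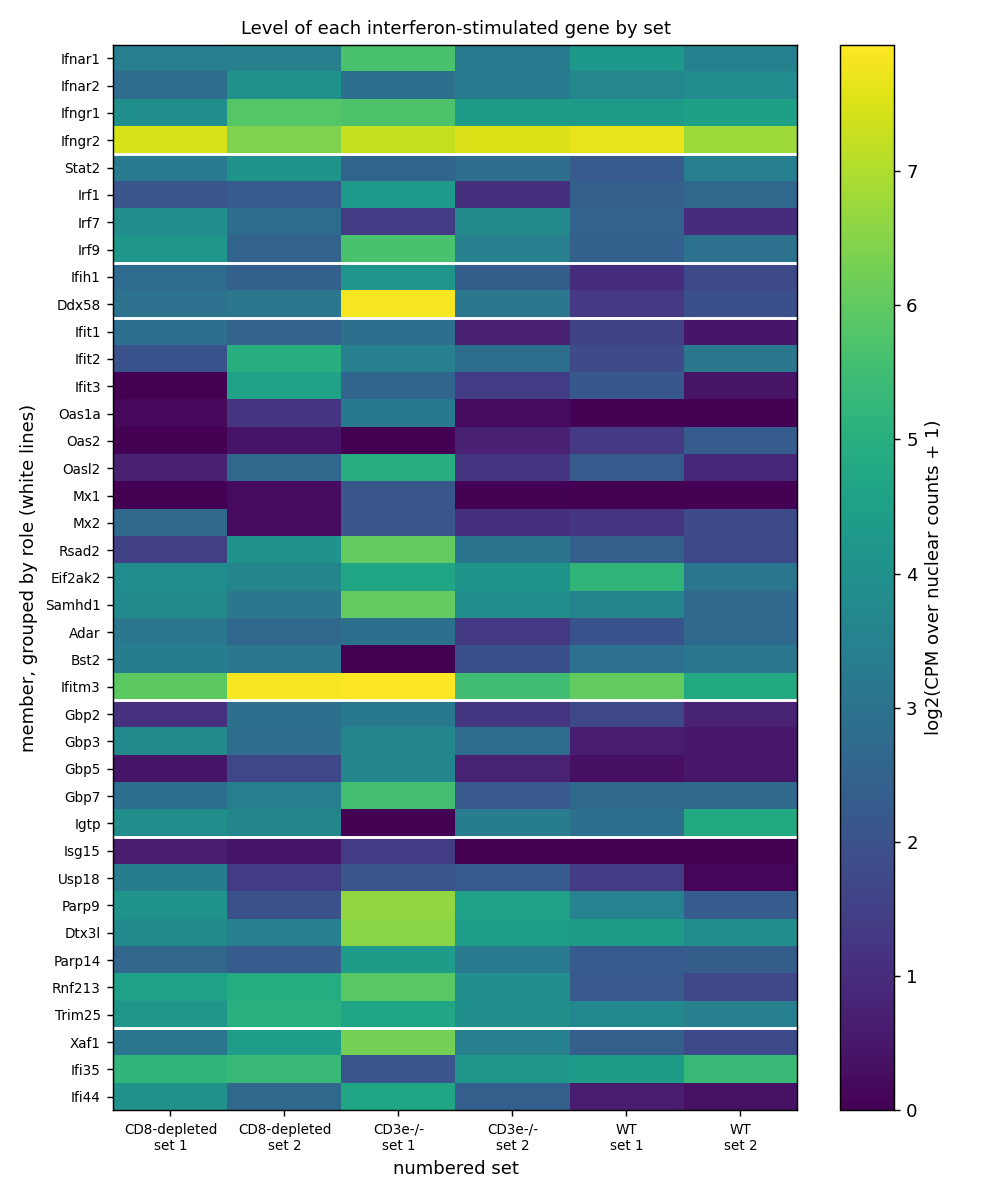
Level of each of the 39 members (rows, grouped by role from receptors at the top to others at the bottom) in the 6 numbered sets (columns), as log2 of CPM over nuclear counts plus 1. Ifngr2 and Ifitm3 are the brightest rows, most antiviral effectors are dark, and CD3e-/- set 1 is bright for Ddx58 (227 CPM), Parp9 (99.2 CPM) and Dtx3l (91.0 CPM).

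Receptors were read in every set. Ifngr2 (chr16:91547072-91565623), the signal-transducing chain of the interferon gamma receptor, had 176 and 84.6 CPM in CD8-depleted cells, 150.5 and 181 CPM in CD3e-/- cells, and 198 and 109 CPM in WT cells. The groups overlapped. It was read in 306 of the 320 cells, from 8 of 11 cells in CD3e-/- set 1 to 59 of 59 cells in WT set 1, which made it the member read in most cells. Ifngr1, the ligand-binding chain, had 14.7 and 56.7 CPM in CD8-depleted cells, 51.3 and 19.7 CPM in CD3e-/- cells, and 19.1 and 22.0 CPM in WT cells. Ifnar1 had 9.42 and 10.1 CPM in CD8-depleted cells, 49.6 and 8.52 CPM in CD3e-/- cells, and 17.8 and 10.2 CPM in WT cells. Ifnar2 had 6.15 and 15.9 CPM in CD8-depleted cells, 6.62 and 8.85 CPM in CD3e-/- cells, and 11.8 and 13.2 CPM in WT cells. No receptor passed the test in any comparison over 6 or 5 sets.

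The ligands were nearly absent. Of 9 interferon genes counted from a fixed list (Ifnb1, Ifng, Ifna1, Ifna2, Ifna4, Ifnk, Ifne, Ifnl2 and Ifnl3), 8 had no read in any kept cell. Ifna2 had 1 and 2 counts in CD8-depleted cells, 7 and 0 counts in CD3e-/- cells and 0 counts in both WT sets. A count of 0 in a set allows a level of up to 0.125 to 4.96 CPM (3 counts of the nuclear total, covering counting error only). Another list of 22 genes of interferon signalling, such as Jak1 and Irf3, was read in full. Of these, 16 were tested over 6 sets, and 7 were higher and 9 lower in CD8-depleted than in WT cells (median log2 fold change -0.10), with none passing.

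Among the transcription factors, Irf7, the master factor of the later type I response, had 13.9 and 6.03 CPM in CD8-depleted cells, 1.65 and 12.6 CPM in CD3e-/- cells, and 4.60 and 1.02 CPM in WT cells. Both CD8-depleted sets lay above both WT sets. Irf1, which drives genes induced by interferon gamma, had 3.27 and 3.84 CPM in CD8-depleted cells, 18.2 and 1.12 CPM in CD3e-/- cells, and 4.35 and 5.31 CPM in WT cells. Stat2 and Irf9, subunits of an ISRE-binding complex, lay between 3.84 and 17.3 CPM in all sets except CD3e-/- set 1, where Irf9 had 49.6 CPM.

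The cytosolic RNA sensors showed 1 value far from the rest. Ddx58 (chr4:40203773-40239828), which encodes RIG-I, had 6.80 and 7.86 CPM in CD8-depleted cells, 227 and 7.90 CPM in CD3e-/- cells, and 1.52 and 2.87 CPM in WT cells. In CD3e-/- set 1, a single cell held 72.3% of these counts. Both CD8-depleted sets were above both WT sets, with 50% and 53.5% of their counts in 1 cell. Ifih1, which encodes the sensor MDA5, was also higher in both CD8-depleted sets than in both WT sets. It had 5.89 and 4.39 CPM in CD8-depleted cells, 16.5 and 4.12 CPM in CD3e-/- cells, and 1.06 and 2.34 CPM in WT cells. In the CD8-depleted sets 1 cell held 77.8% and 54.2% of Ifih1 counts. The number of cells with a read overlapped between CD8-depleted and WT sets for both genes. These were 8 and 7 against 3 and 10 cells for Ddx58, and 5 and 4 against 6 and 5 cells for Ifih1.

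Most antiviral effectors were read in few of the 320 cells, between 3 (Mx1) and 43 (Ifit2), apart from Ifitm3, Eif2ak2 and Samhd1. Ifitm3 (chr7:141009586-141010770), a membrane protein that blocks viral entry, was read in 39.7% of cells, against 32.5% for Eif2ak2 and 31.6% for Samhd1, with 60.3 and 233 CPM in CD8-depleted cells, 245 and 44.1 CPM in CD3e-/- cells, and 64.5 and 27.5 CPM in WT cells. CD8-depleted set 2 and CD3e-/- set 1 were high and CD8-depleted set 1 lay beside WT set 1, so the groups overlapped. Rsad2, which encodes viperin, had 1.83 and 15.5 CPM in CD8-depleted cells, 64.5 and 7.23 CPM in CD3e-/- cells, and 4.26 and 2.34 CPM in WT cells. Bst2, which encodes tetherin, had 9.16 and 7.86 CPM in CD8-depleted cells, 0 and 2.83 CPM in CD3e-/- cells, and 6.84 and 7.64 CPM in WT cells. Here the CD3e-/- sets were the lowest.

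Of the oligoadenylate synthetase genes, which make the activator of RNase L, Oas1a had 0.131 and 1.28 CPM in CD8-depleted cells, 8.27 and 0.166 CPM in CD3e-/- cells, and 0.0422 and 0 CPM in WT cells. Those of Oas2 were 0 and 0.366 CPM in CD8-depleted cells, 0 and 0.665 CPM in CD3e-/- cells, and 1.48 and 3.99 CPM in WT cells. Oas2 was read in 10 of the 320 cells and Oas1a in 6, so both values rest on single cells. Ifit3, an RNA-binding tetratricopeptide protein, had 0 and 22.7 CPM in CD8-depleted cells, 4.96 and 1.70 CPM in CD3e-/- cells, and 3.50 and 0.341 CPM in WT cells. In CD8-depleted set 2, 1 cell held 95.2% of its counts. The remaining effectors (Ifit1, Ifit2, Oasl2, Mx1, Mx2, Eif2ak2, Samhd1 and Adar) lay between 0 and 64.5 CPM in all sets. Mx1 was read in 3 cells in all. Reads of Ifit3 and Oas1a can be shared with their near-identical copies Ifit3b, Oas1g and Oas1b, and those of Ifitm3 with Ifitm2, depending on how the authors' counting placed them.

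The guanylate-binding protein Gbp3 (chr3:142560026-142573209), a large GTPase of host defence, was lower in both WT sets than in the 4 others, among which CD8-depleted and CD3e-/- sets overlapped. It had 12.7 and 6.22 CPM in CD8-depleted cells, 11.6 and 6.03 CPM in CD3e-/- cells, and 0.549 and 0.438 CPM in WT cells. It was read in few cells, 3 and 3 CD8-depleted cells, 4 and 9 CD3e-/- cells, and 3 and 2 WT cells. The number of cells with a read hence overlapped between WT and CD8-depleted sets, while in CPM both WT sets were lower. Both CD3e-/- sets had more cells with a read than both WT sets. Igtp, an immunity-related GTPase, had 14.1 and 11.5 CPM in CD8-depleted cells, 0 and 9.02 CPM in CD3e-/- cells, and 6.58 and 27.5 CPM in WT cells. Gbp2, Gbp5 and Gbp7 lay between 0.253 and 9.87 CPM outside CD3e-/- set 1 and reached 46.3 CPM within it.

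Among the ubiquitin-like and ADP-ribose enzymes, Rnf213 (chr11:119393100-119487418), a giant ubiquitin ligase that coats intracellular pathogens, had 22.5 and 28.9 CPM in CD8-depleted cells, 59.5 and 13.9 CPM in CD3e-/- cells, and 3.63 and 2.29 CPM in WT cells. Every CD8-depleted and CD3e-/- set was above both WT sets. It was read in 17 and 15 CD8-depleted cells, 5 and 28 CD3e-/- cells, and 18 and 11 WT cells. At a common depth of 50000 nuclear counts per cell, reached by 303 of the 320 cells, these were 17.5% and 26.1% of CD8-depleted cells, 75% and 26.7% of CD3e-/- cells, and 11.9% and 8.06% of WT cells. The 75% rests on 4 cells. Parp9, an ADP-ribosyl transferase partner of the ubiquitin ligase Dtx3l, had 16.2 and 2.93 CPM in CD8-depleted cells, 99.2 and 22.2 CPM in CD3e-/- cells, and 10.4 and 3.94 CPM in WT cells.

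Trim25, a ubiquitin ligase that acts on RIG-I, had 17.4 and 31.8 CPM in CD8-depleted cells, 24.8 and 14.6 CPM in CD3e-/- cells, and 12.1 and 10.1 CPM in WT cells. Usp18, which removes Isg15 from proteins and restrains the type I receptor, had 9.16 and 1.65 CPM in CD8-depleted cells, 3.31 and 3.87 CPM in CD3e-/- cells, and 1.69 and 0.0974 CPM in WT cells. Isg15 itself, a ubiquitin-like modifier and a common marker of the response, was read in 1 cell of each CD8-depleted set and in 1 cell of CD3e-/- set 1. It had no read in 77 cells of CD3e-/- set 2, nor in 59 and 62 WT cells, which allows a share of cells with a read of up to 3.90% in CD3e-/- set 2 and of 5.08% and 4.84% in the WT sets. Parp14 and Dtx3l lay between 3.84 and 20.5 CPM outside CD3e-/- set 1.

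Of the other members, Xaf1 (chr11:72301629-72313733), a pro-apoptotic antagonist of XIAP, had 7.72 and 21 CPM in CD8-depleted cells, 76.1 and 10.1 CPM in CD3e-/- cells, and 4.31 and 2.43 CPM in WT cells. Ifi44 (chr3:151730922-151749960), an interferon-induced cytoplasmic protein, had 15.8 and 5.48 CPM in CD8-depleted cells, 24.8 and 4.24 CPM in CD3e-/- cells, and 0.549 and 0.292 CPM in WT cells. Ifi44 was read in few cells, 5 and 4 CD8-depleted cells, 3 and 6 CD3e-/- cells, and 2 and 3 WT cells. In each set 1 cell held 43.3% to 66.7% of its counts. For both genes all 4 sets without CD8 T cells or T cells were above both WT sets. Of all 12936 genes tested, both CD3e-/- sets were above both WT sets for 28%, and both CD8-depleted sets were for 21%. The share of genes with all 4 sets above both WT sets is not given. The separation of all 4 sets, also for other members such as Rnf213 and Gbp3, is therefore no result about the members. Ifi35, a leucine zipper protein, had 36.4 and 40.6 CPM in CD8-depleted cells, 3.31 and 17.5 CPM in CD3e-/- cells, and 19 and 39.6 CPM in WT cells, so the CD3e-/- sets were the lowest.

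**Figure D2:**
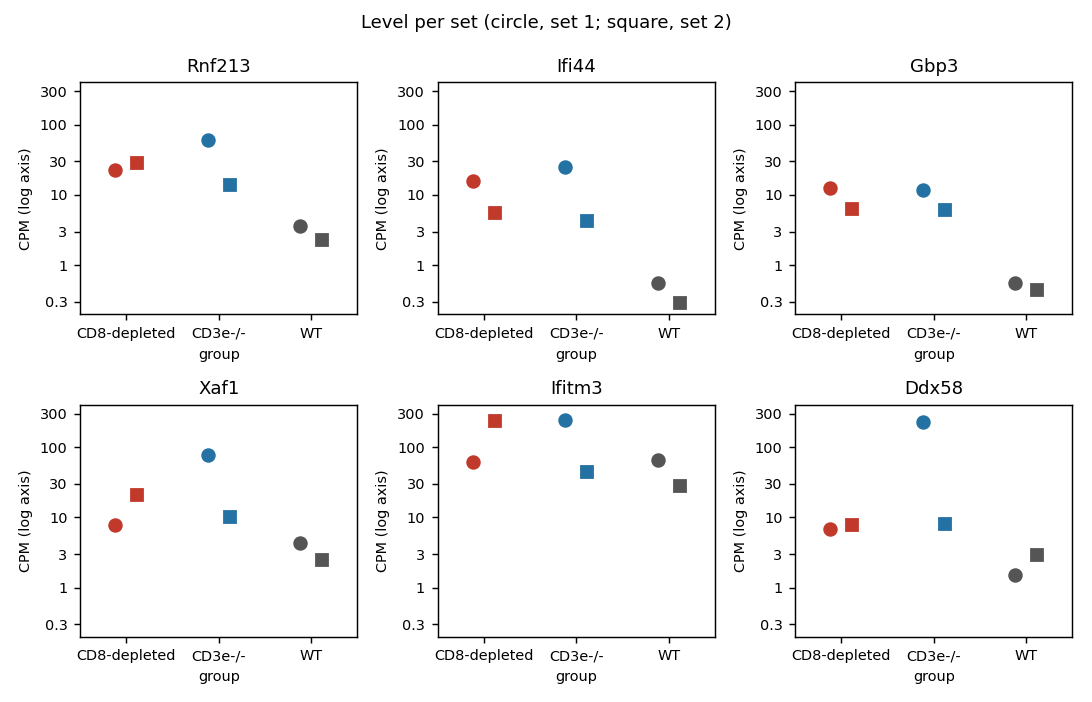
CPM over nuclear counts (log axis) of 6 members in CD8-depleted, CD3e-/- and WT cells; a circle is set 1 and a square is set 2 of each group. For Rnf213, Ifi44, Gbp3, Xaf1 and Ddx58 both WT points are the lowest, for Ifitm3 the groups overlap, and the circle of CD3e-/- is the highest of all in every panel but that of Gbp3.

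The first comparison asked whether cardiomyocytes of CD8-depleted hearts differed from WT in this response. Over 6 sets, 37 members could be tested (Isg15 and Mx1 had too few counts), of which 29 were higher and 8 lower in CD8-depleted cells. Their median log2 fold change was 0.78, against 0.02 over all 12936 genes tested. None passed an adjusted p under 0.05 in edgeR's quasi-likelihood test, where 0% of all genes passed. 4 had an unadjusted p under 0.05, and DESeq2 and limma-voom called none. Counts at an unadjusted p, here and below, are given without the share of all genes at that cutoff. Over 5 sets, 36 members were tested, with 28 higher and 8 lower and a median of 0.76. One member passed, against 0.239% of 13374 genes. This was Rnf213, with a log2 fold change of 3.13 (SE 0.70, edgeR adjusted p = 0.0398), and of 3.15 (SE 0.80, edgeR adjusted p = 1) over 6 sets.

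The next members by p over 5 sets were Ifi44 (log2 4.67, SE 1.17, edgeR adjusted p = 0.0864), Gbp3 (log2 4.24, SE 1.15, edgeR adjusted p = 0.110), Ifitm3 (log2 1.70, SE 0.47, edgeR adjusted p = 0.124) and Xaf1 (log2 2.10, SE 0.82, edgeR adjusted p = 0.355). Over 6 sets their log2 fold changes were 4.71, 4.27, 1.71 and 2.11. Without CD8-depleted set 2 that of Ifitm3 was 0.50. The call of Rnf213 was lost when the cell with the most counts of a gene was dropped from every set (edgeR adjusted p = 0.0813), with the cell that read most members left out of each set (0.160), with cells thinned to 50000 counts (0.311), without TMM factors (0.127), with the set number as a block (0.124) and in the 4 CD8-depleted and WT sets alone (0.266). Its log2 fold change was 2.75 to 3.84 in all alternatives run.

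By role, the 3 other members, both RNA sensors, 11 of 13 antiviral effectors, 4 of 5 GTPases, 5 of 6 ubiquitin-like and ADP-ribose enzymes and 3 of 4 transcription factors were higher in CD8-depleted than in WT cells over 6 sets, and 1 of 4 receptors was. Both CD8-depleted sets lay above both WT sets in CPM for 12 of the 37 members (Irf7, Ifih1, Ddx58, Ifit1, Oas1a, Bst2, Gbp3, Gbp7, Rnf213, Trim25, Xaf1 and Ifi44), against 21% of all genes tested. They lay under both for 4 members (Ifnar1, Irf1, Oas2 and Dtx3l), against 19.8% of all genes. Of 46 further interferon-induced genes from a fixed list, 41 were tested and 33 were higher and 8 lower (median 0.72), with 3 at an unadjusted p under 0.05 and none passing in edgeR, led by Herc6, Trim30a and Ddx60. Herc6 had 4.58 and 5.67 CPM in CD8-depleted cells, 51.3 and 3.78 CPM in CD3e-/- cells, and 0.380 and 0.243 CPM in WT cells.

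**Figure D3:**
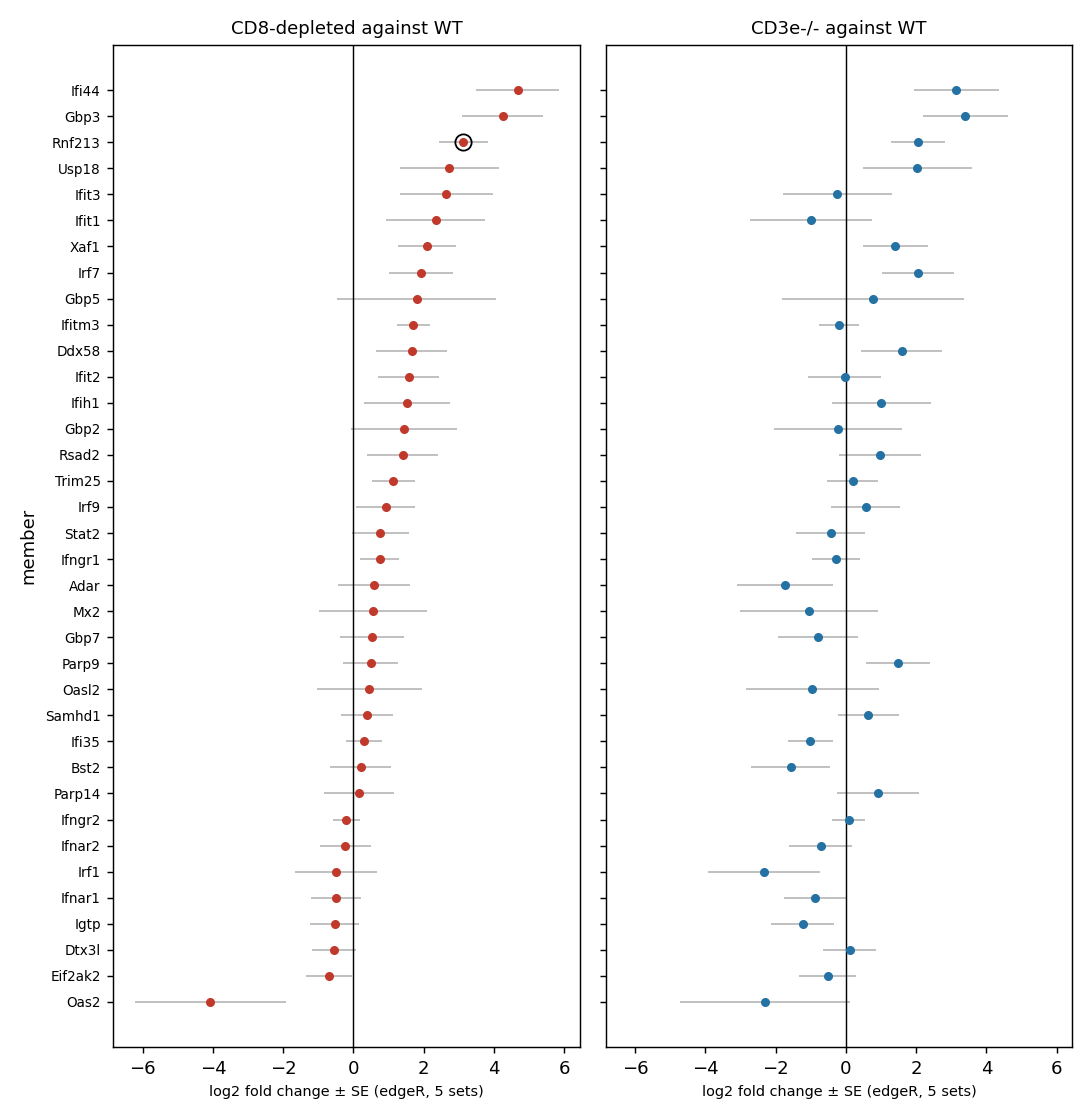
Log2 fold change against WT with its standard error for the 36 members tested over 5 sets, in CD8-depleted cells (left) and CD3e-/- cells (right), in the order of the left panel. A black ring marks the single member that passed, Rnf213 in CD8-depleted cells; in that panel 28 of 36 points lie above 0, and in the right panel 17 of 36 do.

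The same question was asked of CD3e-/- cells against WT. Both comparisons share the WT sets. Over 6 sets, 24 of 37 members were higher and 13 lower in CD3e-/- cells (median log2 0.79, against 0.01 over all genes). None passed in edgeR, where 0% of genes did, and 6 had an unadjusted p under 0.05. DESeq2 called 4 members (Ddx58, Ifi44, Rnf213 and Gbp3) among 619 genes, and limma-voom called none. Over 5 sets, with CD3e-/- set 2 as the lone set of its group and assumed to vary like the others, 17 of 36 members were higher and 19 lower (median -0.12). Again none passed, against 0.127% of all genes, and 3 had an unadjusted p under 0.05. The median thus changed sign without CD3e-/- set 1. With library sizes in place of TMM factors it was 1.64 over 6 sets and 0.09 over 5 sets, a scaling under which the median of all genes was 0.68 over 6 sets and 0.13 over 5 sets.

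The members with the smallest p over 6 sets had these edgeR values. Ddx58 had a log2 fold change of 4.59 (SE 1.19, adjusted p = 0.529), Rnf213 of 2.76 (SE 0.80, 0.529), Ifi44 of 4.15 (SE 1.33, 0.529), Xaf1 of 2.72 (SE 0.98, 0.538), Gbp3 of 3.43 (SE 1.28, 0.548) and Parp9 of 2.25 (SE 0.97, 0.586). Over 5 sets the log2 fold change was 3.40 for Gbp3, 2.05 for Rnf213, 3.14 for Ifi44, 1.5 for Parp9, 1.41 for Xaf1 and 1.58 for Ddx58. Gbp3, Rnf213 and Ifi44 kept an unadjusted p under 0.05 without CD3e-/- set 1. All 6 ubiquitin-like and ADP-ribose enzymes tested were higher than in WT over both 6 and 5 sets, while of the antiviral effectors 6 of 13 were lower over 6 sets and 10 of 12 over 5 sets. The further list of interferon-induced genes had 32 of 41 members higher over 6 sets and 22 of 43 over 5. In CPM, both CD3e-/- sets lay above both WT sets for 16 of the 37 members, Rnf213, Gbp3, Xaf1 and Ifi44 among them, against 28% of all genes tested. Both lay under both WT sets for 4 members (Ifnar2, Oas2, Bst2 and Ifi35), against 8.70% of all genes. For Oas2 this is not settled. Its 0 counts in CD3e-/- set 1 allow up to 4.96 CPM, above both WT values (1.48 and 3.99 CPM).

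CD3e-/- cells were also set against CD8-depleted cells, since one group lacked all T cells and the other CD8 T cells. Over 6 sets 17 of 37 members were higher and 20 lower in CD3e-/- cells (median log2 -0.39), and over 5 sets 8 of 36 were higher and 28 lower (median -0.89, against -0.01 over all genes). With library sizes in place of TMM factors the median was 0.45 over 6 sets, where the median of all genes was 0.73, against 0.07 with TMM factors, and -0.70 over 5 sets. None passed in edgeR, where 0% of genes did over 6 sets and 0.015% over 5, and 2 and 1 members had an unadjusted p under 0.05. The smallest p over 5 sets belonged to Ifitm3 (log2 -1.91, SE 0.62, edgeR adjusted p = 1). Its log2 fold change over 6 sets was -0.93, and it was 0.21 without CD8-depleted set 2.

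Markers of other cells also varied between sets. The 8 endothelial markers summed to 286 and 1215 CPM in CD8-depleted cells, 1796 and 331 CPM in CD3e-/- cells, and 368 and 355 CPM in WT cells, with no marker at 0 in any set. All 8 were higher in CD8-depleted than in WT cells over 6 sets (median log2 0.71), and the sets with the highest endothelial sums were also those with the highest Ifitm3. In CD8-depleted set 1 and CD3e-/- set 2 the endothelial sum lay under both WT sets. Rnf213, Gbp3 and Ifi44, picked from the 39 members, lay above both WT sets in each of these, while Ifitm3 did so in neither. A sum per set does not give the level in single cells. In CD3e-/- set 2, 57.8% of Ifi44 counts lay in 1 cell (cell 77), which had 5717 endothelial CPM. The 8 fibroblast markers summed to 77.6 and 301 CPM in CD8-depleted cells, 440 and 188 CPM in CD3e-/- cells, and 108 and 25.1 CPM in WT cells. In each set the 10 macrophage and monocyte markers summed to 3.70 to 126 CPM, with 2 to 4 of them at 0, and the 8 T cell markers in the table to 0 to 64.5 CPM, with 2 to 8 at 0. The part of these cells or their RNA in the member values was not tested, and fewer cells of a type cannot be told apart from less RNA per cell in sums of this kind.

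How many members were read together in 1 cell was counted next. As deposited, a cell had a median of 6 and 6 members with a read in CD8-depleted sets 1 and 2, 9 and 8 in CD3e-/- cells, and 7 and 6 in WT cells. The most were 22 and 30 in CD8-depleted cells, 23 and 34 in CD3e-/- cells, and 20 and 26 in WT cells. Median depth per cell differed between sets, at 96256 and 98953 nuclear counts in CD8-depleted cells, 40699 and 223873 in CD3e-/- cells, and 413073 and 242696 in WT cells. Thinned to 50000 nuclear counts, the medians were 4 and 5 members in CD8-depleted cells, 12.5 and 5 in CD3e-/- cells (the 12.5 over 4 cells), and 4 and 4 in WT cells. Thinned cells with at least 10 members were 5 of 57 and 7 of 46 in the CD8-depleted sets, 4 of 4 and 11 of 75 in the CD3e-/- sets, and 5 of 59 and 2 of 62 in the WT sets. A typical cardiomyocyte thus had reads of few members in every group, and a small number of cells had many.

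**Figure D4:**
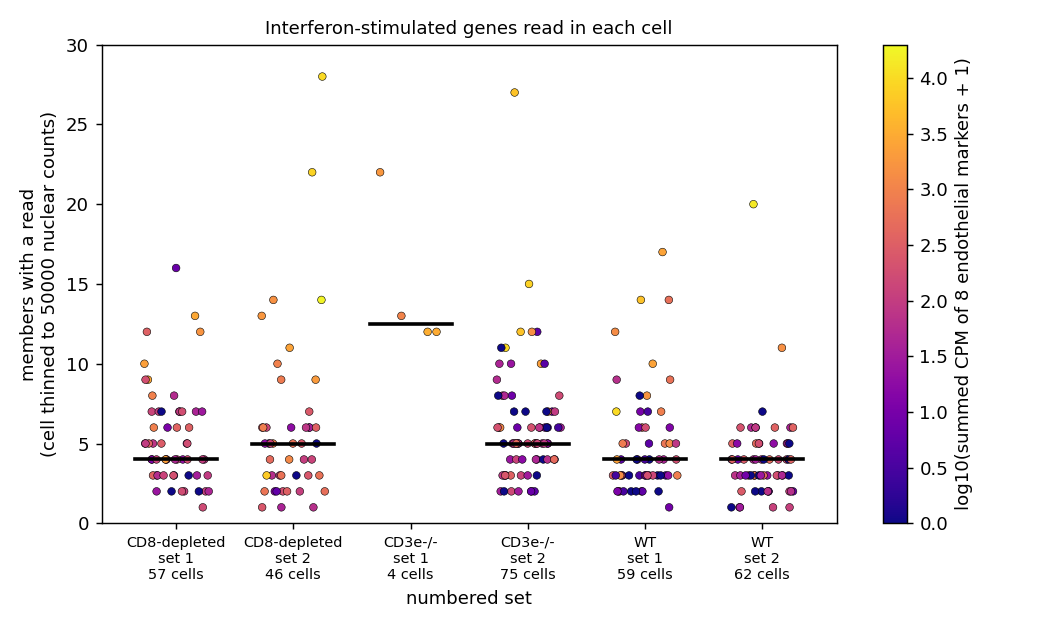
Number of members with a read in each cell after thinning to 50000 nuclear counts, by numbered set; each point is 1 cell, the black line is the median of the set and the colour is log10 of the summed CPM of 8 endothelial markers plus 1. Medians are 4 to 5 except over the 4 cells of CD3e-/- set 1, and the cells far above them, up to 28 members, are mostly of high endothelial level.

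The 20 thinned cells with most members, among 303, had 12 to 28 of them, and the other 283 cells had 1 to 12 with a median of 4. They came from every set: 2 and 5 from CD8-depleted cells, 3 and 5 from CD3e-/- cells, and 4 and 1 from WT cells. The highest was 1 cell of CD8-depleted set 2 (cell 35), with 30 of 39 members as deposited and 28 after thinning. It was the highest cell of its set for 17 members and held 95.2% of the set's Ifit3 counts, 76.5% of its Ifit2 counts, 45.2% of its Xaf1 counts, 29.7% of its Rnf213 counts and both of its Isg15 counts. Without it, the summed member level of CD8-depleted set 2 was 553 CPM in place of 740 CPM. In CD3e-/- set 2, cell 77 read 34 members and held 57.8% of that set's Ifi44 counts. In WT set 2, cell 15 read 26 members and held 97.6% of Oas2 counts, 92.0% of Xaf1 counts and 52% of Ifitm3 counts. Cells with many members were thus present in WT as well.

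**Figure D5:**
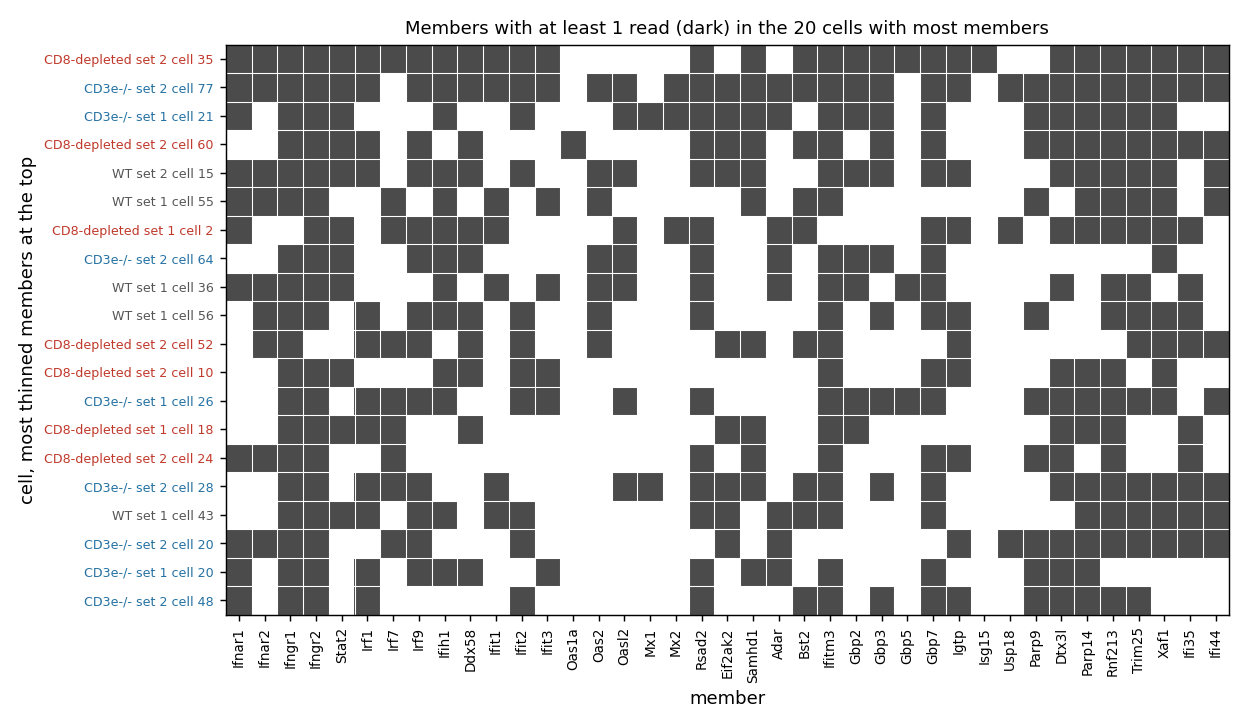
Members with at least 1 read (dark squares) in the 20 cells with most members after thinning (rows, most at the top; red labels are CD8-depleted, blue CD3e-/- and grey WT). Ifngr1 and Ifngr2 are dark in 19 of the 20 rows, Ifitm3 in 18 and Rnf213 in 17, while Isg15 is dark in 1 row.

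These cells also carried endothelial markers. Summed endothelial CPM exceeded 1000 in 17 of the 20 cells (85.0%), against 20 of the other 283 (7.07%), with medians of 2673 and 62.3 CPM. All 8 cardiomyocyte markers were read in all 20, at a median sum of 88115 CPM, against 138221 CPM in the other 283. Median nuclear depth was 137374 counts in the 20 cells and 188330 counts in the others. Cell 35 of CD8-depleted set 2 had 9637 endothelial CPM, cell 77 of CD3e-/- set 2 had 5717 CPM with 7532 fibroblast CPM, and cell 15 of WT set 2 had 13956 endothelial CPM. Not all followed this. In CD8-depleted set 1, cell 2 read 22 members (16 after thinning) with 6.11 endothelial CPM and 161256 cardiomyocyte CPM, and it was the highest cell of its set for 12 members, Rnf213 (49.4% of the set's counts), Xaf1 and Usp18 among them. In CD3e-/- set 2, cell 20 read 19 members (12 after thinning) with 4.27 endothelial CPM. Over all 303 thinned cells the rank correlation of members read with endothelial CPM was 0.329 (Spearman's rho, a description over cells that share libraries), and 0.153 to 0.476 within the 5 sets that had over 4 cells. With the number of detected genes it was 0.286 over all cells and 0.125 to 0.431 within those sets. With nuclear depth it was -0.0421 over all cells and -0.233 to 0.387 within sets, and with the cardiomyocyte sum -0.251 over all cells and -0.417 to -0.181 within sets. The part of endothelial RNA in the members read was not tested.

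Pairs of members were read in the same cells more often than their separate frequencies give. Pairs of other genes were not counted, so whether this is particular to the members was not tested. Of 465 pairs among the 31 members read in at least 10 thinned cells, 393 (84.5%) were read together in more cells than the product of their frequencies within each set, and all pairs together were 1.28 times that product. Among those with the highest ratio were Irf1 and Ifi44 (5 cells, against a product of 0.732) and Gbp2 and Gbp3 (5 cells, against 0.844). Without the 20 cells with most members, 274 of the 465 pairs (58.9%) were above the product and the total was 1.08 times it. A lower count is built into leaving out cells chosen for their number of members. Cells with a read of Oas2 (7 thinned cells) had a median of 14 other members, against 4 in cells without one, and for Gbp2 these were 13.5 in 10 cells against 4. For Rsad2, read in 23 thinned cells, the median of other members was 11, against 4. These are among the highest. For Ifnar1, Ifnar2, Irf9, Eif2ak2 and Ifitm3 the median was 5 against 4, for Ifi35 it was 4 against 4, and for Ifngr2 it was 3 against 4.

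Single cells set much of each level. Among members with at least 10 counts in a set, the highest cell held a median of 43.8% and 43.3% of a member's counts in CD8-depleted sets 1 and 2, 45.8% and 35.9% in CD3e-/- sets, and 45.7% and 51.0% in WT sets. It held over 50% for 12 of 31 and 14 of 33 members in CD8-depleted sets, 7 of 20 and 11 of 36 in CD3e-/- sets, and 15 of 35 and 16 of 30 in WT sets. Ifngr2 was the member least bound to 1 cell in each set but CD3e-/- set 1, at 4.87% to 9.97% of its counts.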

How the data were processed

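The authors deposited raw read counts per gene, 1 column for each of 375 cells, with no normalization. Per the labels' processing notes these were made with fastp 0.21.0, STAR 2.7.5c and featureCounts on mm10, whereas the study's methods name TopHat, mm9 and FPKM for single cells. Strandedness and the handling of multi-mapped reads are not given in the sources used here. Cells with under 3000 detected genes and 1 identical pair were left out. CPM was taken over nuclear counts, without the 13 mitochondrially encoded genes. Counts were summed per numbered set and tested with edgeR 4.0.16 (quasi-likelihood, TMM factors, default low-count filter, all groups in 1 fit, R 4.3.3), with Benjamini-Hochberg adjustment over all genes and a threshold of 0.05. Cells were thinned to 50000 nuclear counts without replacement (random seed 11). DESeq2 1.42.0, limma-voom (limma 3.58.1), other filters, thinned cells, a block on set number and sets left out in turn were alternatives, and leaving out the cell with most members was added after seeing the data. A floor is 3 counts and covers counting error only. Values in every set are given for members called in either fit, the 8 highest per kilobase, the 8 smallest p against WT in each comparison and the receptors. The members and lists were chosen with earlier results of these data known. Promoters are RefSeq's.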

Additional observations from a re-analysis of the deposited data

How the results depend on the processing

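The 12 printed fold changes were recomputed under 281 alternatives in all, of which 264 kept direction and side of the threshold, 15 passed it and 2 reversed. The 11 against WT kept their direction in all 258 of theirs. They had been picked for small p in these data and the alternatives reuse the same sets, so a kept direction is no independent support. Their size was not kept. In CD3e-/- against WT cells the log2 fold change of Ifi44 ran between 1.43 and 5.08. That of Xaf1 ran between 0.945 and 4.34 and that of Ddx58 between 1.33 and 5.79. The fold change of Ifitm3 in CD3e-/- against CD8-depleted cells reversed to 0.025 without TMM factors, and with each set left out it ran between -1.91 (without CD3e-/- replicate 1) and 0.21 (without CD8-depleted replicate 2). Members called in CD8-depleted against WT cells were 3 with DESeq2 over 5 sets (Rnf213, Ifi44 and Gbp3), and 0 to 1 with each set left out. In CD3e-/- against WT cells they were 4 with DESeq2, 1 with no low-count filter, and 0 to 9 with each set left out, the 9 being without CD3e-/- set 2 and so resting on set 1 alone. In CD3e-/- against CD8-depleted cells they were 0 to 4 with each set left out, the 4 again without CD3e-/- set 2. The cause was not tested. Apart from fits whose share of all genes is printed above, these counts of members called are given without that share. They are no result about the members. Thinned to 50000 counts, the median members per cell were 4 and 5 in CD8-depleted cells, 12.5 and 5 in CD3e-/- cells and 4 and 4 in WT cells. With the set number as a replicate block, 0 members were called in each comparison over 6 and over 5 sets. Same-numbered sets did not deviate together (r = -0.045, 0.0654 and -0.19 over 12936 genes), so the numbers were not taken as pairs. With 2 sets per group and 604652 nuclear counts in CD3e-/- set 1, low members were measured with little precision.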
